A study of Sus scrofa with 13 samples.

Results

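The genes of the eukaryotic translation initiation factors were followed through early pig development. A gene was included when its symbol in the deposited table begins with EIF and a digit from 1 to 6. EIF4E1B and the EIF2AK kinases were left out, so 46 of 28232 genes were kept. They were 5 EIF1 genes, 10 EIF2 genes, 12 EIF3 genes, 15 EIF4 genes, 3 EIF5 genes and EIF6. The genes encoding eIF5 itself, eIF3 subunit C and a Y-linked copy of eIF2 subunit 3 are listed under LOC symbols and stand outside this choice, and their values are given where they bear on a result. All 46 genes had a RefSeq record of the same build, Sscrofa11.1, and lay on 16 chromosomes. EIF2B4, EIF3B and EIF4B carry the biotype lncRNA in the table.

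Messenger RNA had been sequenced from pools of Sus scrofa preimplantation embryos to compare stages and to compare embryos from in vitro fertilisation (IVF) with embryos developed in vivo. IVF 4-cell embryos, IVF blastocysts and IVF hatched blastocysts had 3 libraries each, and in vivo blastocysts and in vivo hatched blastocysts had 2 libraries each. A blastocyst has a fluid-filled cavity, and a hatched one has left the zona pellucida. The labels give no age, breed or embryo number for a pool, and they do not say whether libraries of a group came from separate animals or collections, so p-values measure only the spread between these libraries, which may be technical.

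Translation of most messages begins when EIF4E binds the 5′ cap, the scaffold EIF4G1 and the helicase EIF4A1 join it, and a small ribosomal subunit loaded with EIF1, EIF1A, EIF3 and the initiator tRNA carried by EIF2 scans to the start codon. EIF2 is recharged by the exchange factor EIF2B, EIF5B joins the large subunit, and EIF6 keeps free large subunits apart. The early embryo first translates messages stored in the egg, then depends on messages from its own genome, which in the pig becomes active around the 4-cell stage.

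Below, CPM is a gene's count relative to its library's TMM-normalised total. FPKM is the deposited value per length of gene, used where levels of different genes are compared, and was taken from 12 libraries, with library 2 alone for in vivo hatched embryos. A ± gives the SD over a group's libraries beside a level and the standard error beside a log2 change (3 IVF or 2 in vivo libraries a group). CPM values of single libraries follow the library numbers, and for in vivo hatched embryos the library without a number comes first. A gene was called when its adjusted p in edgeR was under 0.05, and "rose", "fell", "higher than" and "lower than" without a value refer to such calls. These are bulk libraries, so fewer cells of a type and less RNA per cell cannot be told apart. The RNA was selected with oligo(dT), so the amount of a message and the length of its poly(A) tail cannot be told apart either.

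Libraries held 33259311 to 39273867 counts, and 14221 to 16735 genes had at least 1 count in a library. The trophectoderm markers summed to 99.6 to 623 CPM in 4-cell libraries, where TFAP2C led and KRT18 and CDX2 were at 0. In blastocyst libraries, where KRT8 led, they summed to 19655 to 38169 CPM. The oocyte markers summed to 9254 to 15093 CPM in 4-cell libraries and to at most 18.7 CPM later. Markers of cumulus, sperm, blood, oviduct and stroma summed to at most 54.2 CPM in any library. Within groups of blastocysts, libraries correlated at 0.974 to 0.986 (Pearson's r over log2 values of 17606 genes), and 4-cell libraries at 0.816 to 0.931. Library 1 of the 4-cell embryos stood apart from the other two, so counts of calls and most fold changes against 4-cell embryos are given with and without it. It was singled out after values were seen. Leaving out the library that differs most narrows the spread, so standard errors and p-values without it are likely too small. The hypoblast markers summed to 696 CPM in in vivo hatched library 2 and to 125 to 242 CPM in the other 12 libraries.

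All 46 genes passed the filter on low counts in both fits. Together they made up 0.679% (4-cell library 3) to 1.29% (4-cell library 1) of a library's counts before normalisation. With TMM factors they summed to 9412, 6291 and 6864 CPM in the 4-cell libraries. The sum was 9398 to 10758 CPM in IVF blastocysts and 10119 to 11734 CPM in IVF hatched blastocysts. In vivo blastocysts stood at 13136 and 11599 CPM, and in vivo hatched blastocysts at 12783 and 10991 CPM. The lowest sums were those of 4-cell libraries 2 and 3, and the highest single sum was that of in vivo blastocyst library 1. Before normalisation 4-cell library 1 had the highest share, so this order depends on the TMM factors.

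**Figure D1:**
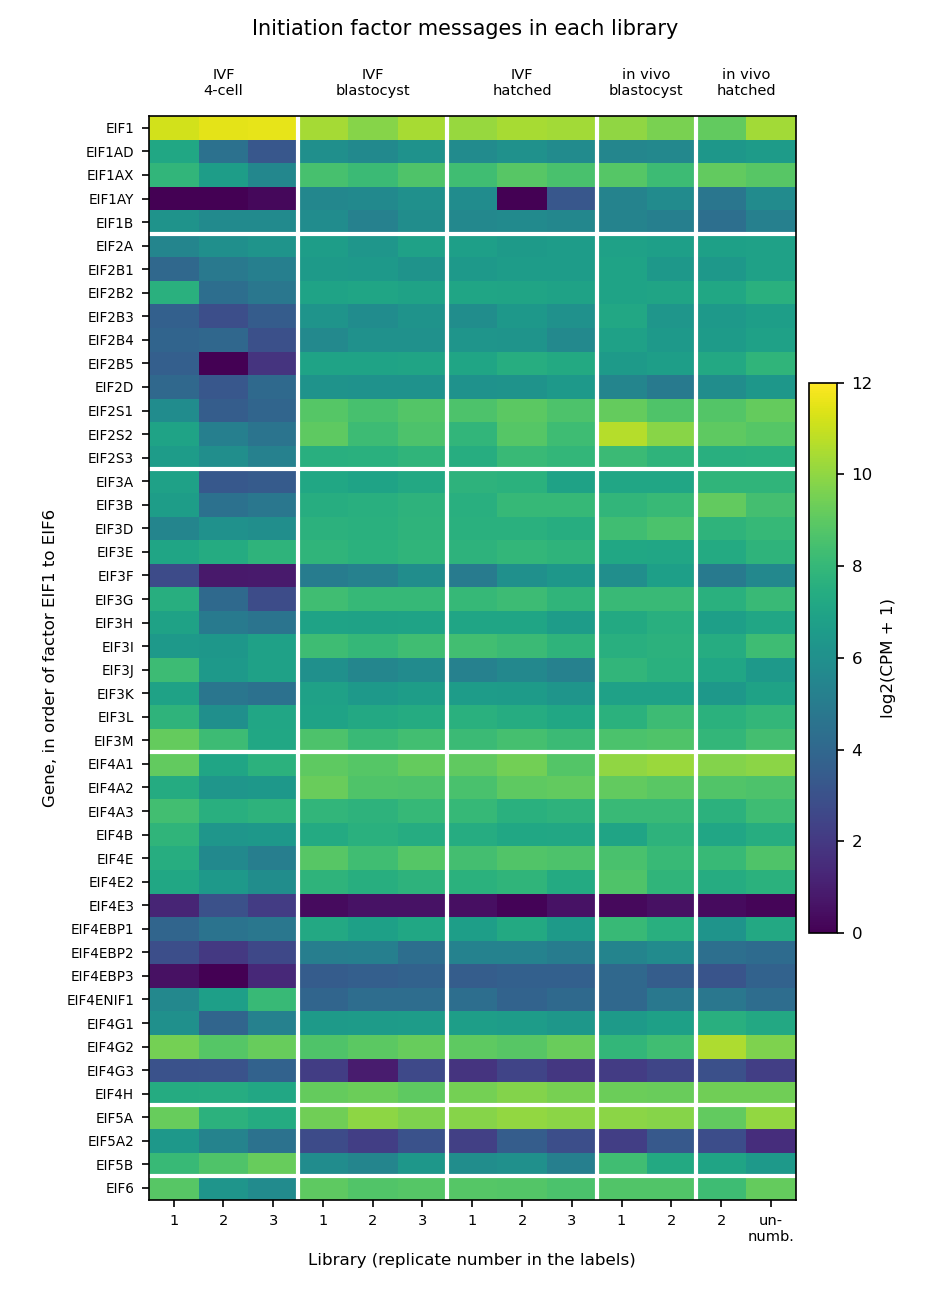
Each row is 1 of the 46 genes, in order of factor, each column is 1 of the 13 libraries, and colour gives log2(CPM + 1), where CPM is the TMM-normalised count. White lines part groups and factors. The 4-cell columns differ from all others and library 1 is brighter than libraries 2 and 3 for many EIF2 and EIF3 genes, while EIF4E3, EIF4ENIF1, EIF5A2 and EIF5B are brighter there than in IVF blastocysts.

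Among the start-codon factors, EIF1, which keeps the scanning ribosome from stopping at wrong codons, had the highest FPKM of the 46 genes in all 9 IVF libraries. In the in vivo libraries another gene was highest, EIF2S2 in blastocyst library 1 and EIF4A1 in blastocyst library 2 and hatched library 2. EIF1 stood at 2381 ± 135 FPKM in 4-cell embryos, 876 ± 187 in IVF blastocysts, 897 ± 77.0 in IVF hatched, 642 ± 82.5 in in vivo blastocysts and 416 in the in vivo hatched library. Its close copy EIF1B made up 3.74% to 6.51% of the summed FPKM of both in 4-cell libraries and 7.36% to 9.25% in blastocyst libraries. EIF1AX, the X-linked EIF1A gene, stood at 36.0 ± 32.0 FPKM in 4-cell embryos and at 61.97 to 121.6 FPKM in blastocyst libraries. EIF1AD, a related gene whose role in initiation is less clear, was at 21.7 ± 29.4 FPKM in 4-cell embryos, where library 1 carried most of it, and at 24.7 in the in vivo hatched library.

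EIF2 consists of an alpha subunit (EIF2S1), whose phosphorylation slows translation under stress, a beta subunit (EIF2S2) and a gamma subunit (EIF2S3) that binds the tRNA. In all 12 libraries with FPKM EIF2S2 had the most FPKM of the 3, with 46.1% to 81.3% of their sum. In vivo blastocysts held the top of that range, at 77.4% and 81.3%, and there EIF2S2 reached 802 ± 234 FPKM, above EIF1. EIF2S1 made up 5.08% to 10.1% of the sum in 4-cell libraries, 10.3% and 12% in in vivo blastocysts and 20.2% to 29.5% in the other blastocyst libraries. The 5 EIF2B genes summed to 232 to 289.5 FPKM in blastocyst libraries, and the highest of the 5 exceeded the lowest by 2.06 to 2.78 times there. In 4-cell library 1 the highest of the 5, EIF2B2, had 171 FPKM and the lowest, EIF2B5, 5.71 FPKM, and in library 2 EIF2B5 had no count. EIF2A and EIF2D, which can bring tRNA to ribosomes without EIF2, were at 40.9 ± 8.48 and 32.6 ± 0.576 FPKM in IVF blastocysts.

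EIF3 is the large scaffold on the small subunit. The 12 EIF3 genes summed to 1157 to 1666 FPKM in blastocyst libraries and to 1738, 627 and 518 FPKM in 4-cell libraries 1, 2 and 3. The ratio of the highest to the lowest of them was 7.22 to 15 in blastocyst libraries and 86.8, 345 and 171 in 4-cell libraries, where EIF3F was lowest each time. EIF3M was highest in 4-cell libraries 1 and 2 and EIF3E in library 3. In blastocyst libraries the highest was EIF3M, EIF3I or EIF3G, and the lowest was EIF3F, EIF3A or EIF3J. The subunit messages were less even at the 4-cell stage, also in library 1.

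Of the cap-binding genes, EIF4E2, which binds the cap but is known to hold translation back, had more FPKM than EIF4E in 11 of 12 libraries, all but IVF hatched library 3. Its share of the EIF4E family was 65.9% to 67.6% in 4-cell libraries, 50.5% to 55.9% in IVF blastocysts and 70.7% and 75.9% in in vivo blastocysts. EIF4E3 was at 0.699 ± 0.519 FPKM in 4-cell embryos and at or below 0.0774 FPKM in every blastocyst library. Of the scaffolds, EIF4G2, which lacks the binding site for EIF4E, made up 79.3% to 97.1% of the EIF4G FPKM, and EIF4G3 at most 1.14%. Of the binding proteins that keep EIF4E from EIF4G, EIF4EBP1 made up 86.7% to 98.8%.

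Of the EIF4A helicases, EIF4A1 held 55.4% to 60.3% of the family FPKM in the 3 in vivo libraries and 37.1% to 49.5% in the 6 IVF blastocyst and hatched libraries. EIF4A2 held 22.6% to 27.1% in in vivo and 28.0% to 42.2% in those IVF libraries, so the ranges of both shares were apart by origin. Shares within a family depend on one another, and by CPM EIF4A2 overlapped between origins. It stood at 381 to 605 CPM in those IVF libraries and at 398 to 563 CPM in in vivo libraries. EIF4A3, which serves in the exon junction complex on spliced messages, held 33.7% to 50.7% in 4-cell libraries and 16.4% to 26.0% later. Of the 2 EIF5A genes, which carry hypusine and help ribosomes through difficult stretches, EIF5A2 made up 3.62% to 6.34% in 4-cell libraries and at most 0.34% in blastocyst libraries. EIF6 stood at 464, 76.5 and 53.9 CPM in 4-cell embryos and at 311 to 568 CPM in blastocyst libraries.

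The first comparisons set IVF blastocysts and IVF hatched blastocysts against the same IVF 4-cell embryos, within 9 libraries, and ask how the messages change as the embryo takes over. In blastocysts 23 of 46 genes were higher and 6 lower than in 4-cell embryos, against 56.3% of all 16312 genes called in either direction, 25.7% higher and 30.6% lower. The median log2 fold change was 1.31 over the 46 genes and -0.23 over all genes tested. In hatched blastocysts 22 were higher and 6 lower, against 56.6% of all genes called, 25.7% higher and 30.9% lower, with medians of 1.39 and -0.24. Both comparisons share the 4-cell libraries, and 28 genes were called in both. The share of all genes called in both is not given, so this overlap tells nothing of the 46 as a set. Without 4-cell library 1, 33 were higher and 6 lower in each comparison, all genes called before were called again, and 66% and 66.4% of all genes were called. With each library left out in turn, 22 of the 29 blastocyst calls were always kept: EIF3J was lost without IVF blastocyst library 2 or 3 (adjusted p up to 0.0795), EIF2B5 without 4-cell library 3 (0.0557), and EIF4E3, EIF4E2, EIF5A, EIF1AX and EIF4G1 without 4 or 5 of the 6 libraries (up to 0.106). Of the 28 hatched calls 24 were always kept, all but EIF4E3, EIF5A, EIF1AX and EIF4E2. Without TMM factors the median of all genes moved by -0.27 and -0.31, and changes here are relative to TMM. Of the 46 genes 18 were then higher and 6 lower in blastocysts, and 19 higher and 6 lower in hatched ones. With RLE factors in place of TMM 21 were higher and 6 lower in each. The shares of all genes called in these fits are not given.

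The oocyte and trophectoderm marker sums given above moved with these groups, and their part in the changes was not tested. Across the EIF2 group 8 of 10 genes rose and none fell in either comparison. Of all genes 25.7% rose in each, and 30.6% and 30.9% fell. EIF2S1 stood at 56.8, 10.5 and 14.1 CPM in 4-cell embryos and at 449, 368 and 442 CPM in IVF blastocysts, and the groups did not overlap. Its log2 fold change was 3.93 ± 0.64 (adjusted p = 0.00114), and 5.19 ± 0.27 without library 1. EIF2S2 stood at 125, 35.2 and 23.4 CPM in 4-cell embryos and rose by 2.69 ± 0.64, and EIF2S3 rose by 1.63 ± 0.39 on the log2 scale. Of the 3 subunits EIF2S1 had the highest value, and differences between genes were not tested.

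The exchange factor genes rose in the same way except EIF2B2. EIF2B3, the gamma subunit, stood at 11.9, 6.38 and 10.1 CPM and then at 74.2, 55.5 and 71.1 CPM in IVF blastocysts, a log2 change of 2.80 ± 0.36 (adjusted p = 0.000336). EIF2B5, the catalytic subunit, stood at 11.3, 0 and 2.46 CPM in 4-cell embryos and at 122, 124 and 128 CPM in blastocysts, a change of 4.74 ± 1.42 (adjusted p = 0.0192). EIF2B5 was the furthest apart of the autosomal genes, with a mean of 27.2 times the 4-cell mean. EIF2B1 and EIF2B4 rose by 1.65 and 2.35, and by 1.51 and 2.57 without library 1. EIF2B2 stood at 198, 19.3 and 25.7 CPM in 4-cell embryos, so library 1 lay above all IVF blastocysts, at 122, 129.9 and 121 CPM, and the other two lay below them. Its change was 0.59 ± 0.76 (adjusted p = 0.531) with all libraries and 2.56 ± 0.22 (adjusted p = 4.17e-05) without library 1. The latter p-value is likely too small, since the library that differed most was left out. EIF2D rose by 2.37 ± 0.34 (adjusted p = 0.000562). Without library 1 the changes were 3.12 for EIF2B3, 6.78 for EIF2B5, 2.62 for EIF2D, 3.87 for EIF2S2 and 2.16 for EIF2S3.

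In the EIF3 group 4 of 12 genes rose, 1 fell and 7 were not called in blastocysts, and the same counts held in hatched blastocysts. Beside this, 25.7% of all genes rose in each comparison, and 30.6% and 30.9% fell. EIF3F, one of the subunits with a protease-like domain, stood at 5.73, 0.771 and 0.84 CPM in 4-cell embryos and 32.1, 37.7 and 57.9 CPM in blastocysts, a log2 change of 4.09 ± 0.87 (adjusted p = 0.00389). EIF3D, which can itself bind the cap of some messages, rose by 1.85 ± 0.27, EIF3B by 1.94 ± 0.57 and EIF3I by 1.58 ± 0.29. Without library 1 the changes were 5.82 for EIF3F, 1.81 for EIF3D, 3.13 for EIF3B and 1.66 for EIF3I. EIF3J, a loosely held subunit that helps release messages from recycled ribosomes, went the other way. It stood at 301, 85.8 and 115 CPM in 4-cell embryos and at 64.7, 43.9 and 55.1 CPM in blastocysts, which did not overlap, a log2 change of -1.64 ± 0.47 (adjusted p = 0.0161). Without library 1 its change was -0.78 ± 0.25 (adjusted p = 0.0251), less than the full value by more than 1.5 times.

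Library 1 decided most of the remaining EIF3 calls. EIF3A, the largest subunit, stood at 117, 8.97 and 9.93 CPM in 4-cell embryos and at 139, 124 and 148 CPM in blastocysts, with a change of 1.57 ± 0.89 (adjusted p = 0.163), and 3.96 ± 0.33 (adjusted p = 4.18e-05) without library 1. EIF3G stood at 185, 16.4 and 5.85 CPM, with changes of 1.99 ± 1.02 and 4.75 ± 0.48. EIF3H and EIF3K were likewise called without library 1, at 1.07 with it and 2.30 without, and at 0.87 and 2.22. EIF3E, EIF3L and EIF3M were not called either way. Library 1 had the highest CPM of the 3 four-cell libraries for 30 of 46 genes (65.2%), against 31.1% of all 16312 genes, and over 3 times the next for 13 of 46 (28.3%), against 12.7%. Libraries 2 and 3 were highest for 4 and 12 genes, against 26.8% and 36.1% of all genes, and over 3 times the next for 0 and 2, against 4.38% and 5.97%. The ratio to the next library was 11.8 for EIF3A, 11.3 for EIF3G, 7.69 for EIF2B2 and 6.06 for EIF6. The trophectoderm markers summed to 623 CPM in library 1 and to 134 and 99.6 CPM in libraries 2 and 3. Most of this was TFAP2C (4-cell mean of 258 CPM), and KRT18 and CDX2 were at 0 in all 4-cell libraries. The sums therefore tell little of the other trophectoderm markers. Oocyte markers summed to 10686, 9254 and 15093 CPM, and the part of either list in this was not tested.

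**Figure D2:**
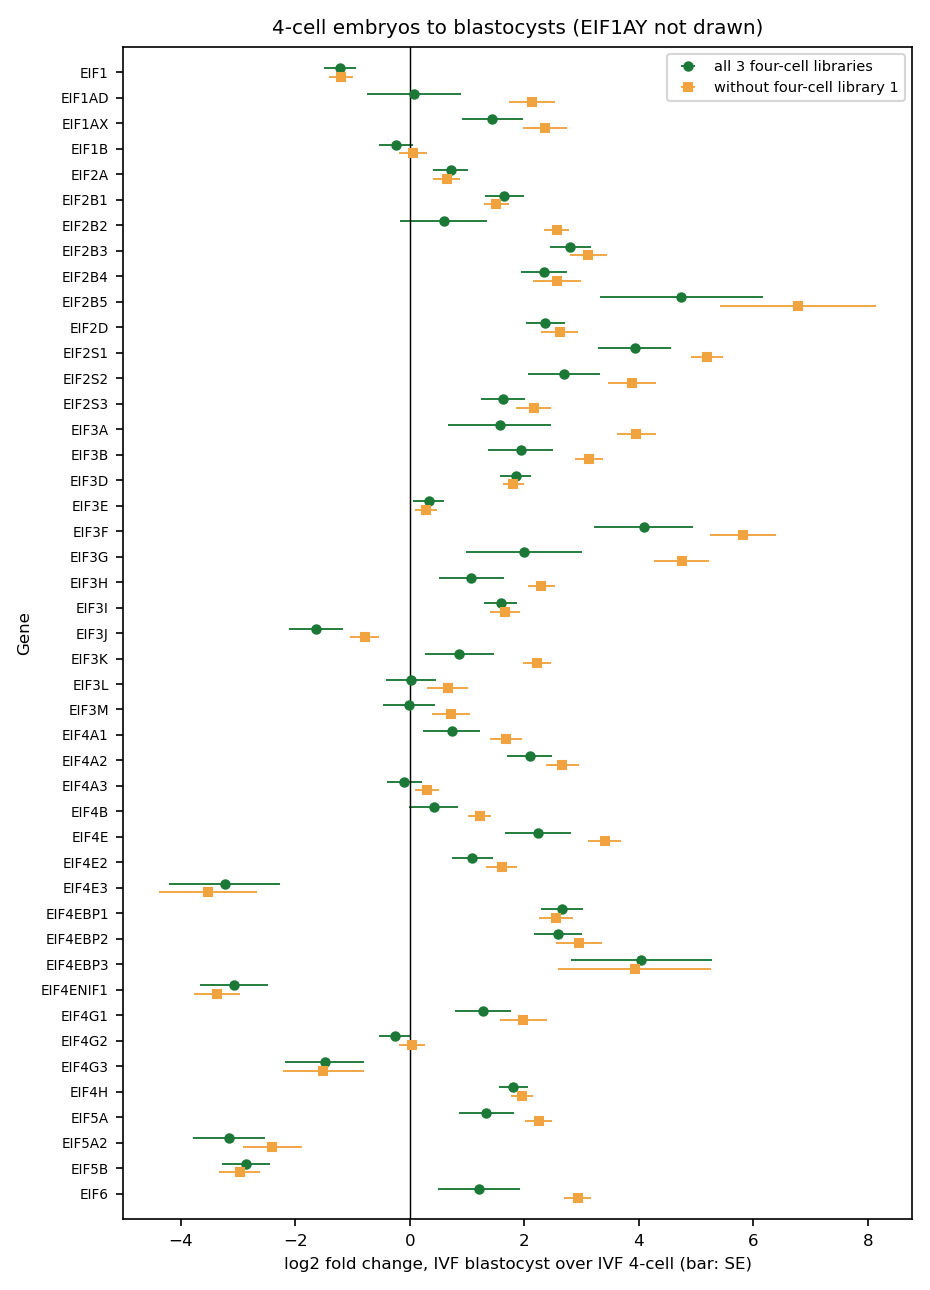
Points are log2 fold changes of IVF blastocysts over IVF 4-cell embryos from edgeR, with bars of 1 standard error, for 45 genes in order of factor. Green circles use all 3 four-cell libraries and orange squares leave out library 1. EIF5B, EIF4ENIF1, EIF5A2 and EIF4E3 lie far left in both, EIF2S1, EIF2B5 and EIF3F far right, and without library 1 EIF3A, EIF3G, EIF1AD, EIF2B5, EIF2B2, EIF3F and EIF6 move right by more than 1.5.

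In the EIF4 group 8 of 15 genes rose and 2 fell in blastocysts, and 7 rose and 2 fell in hatched blastocysts. The shares of all genes were again 25.7% higher in each, and 30.6% and 30.9% lower. EIF4H, a cofactor of the helicase, stood at 167, 171 and 146 CPM in 4-cell embryos, 569, 631 and 522 CPM in blastocysts and 731, 874 and 749 CPM in hatched embryos, with no overlap between the 4-cell and later groups. Its log2 changes were 1.81 ± 0.25 (adjusted p = 0.000507) and 2.26 ± 0.26 (adjusted p = 0.000185). The cap-binding gene EIF4E rose by 2.24 ± 0.58 and the helicase EIF4A2 by 2.09 ± 0.39. The repressors of EIF4E rose as well. EIF4EBP1 stood at 14, 23.1 and 25.7 CPM and then 152, 111 and 139 CPM, a change of 2.66 ± 0.36 (adjusted p = 0.000468), and EIF4EBP2 and EIF4EBP3 changed by 2.59 ± 0.42 and 4.04 ± 1.23. Without library 1 the changes were 1.96 for EIF4H, 3.40 for EIF4E, 2.67 for EIF4A2, 2.55 for EIF4EBP1, 2.95 for EIF4EBP2, 3.93 for EIF4EBP3 and 1.98 for EIF4G1. In hatched embryos they were 2.40 for EIF4H and 1.95 for EIF4G1, which was then called. EIF4G1 was called in blastocysts, at 1.27 (adjusted p = 0.0492), and not in hatched embryos, at 1.25 (adjusted p = 0.052).

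The EIF4 genes that fell were EIF4ENIF1 and EIF4E3. EIF4ENIF1, which carries EIF4E into the nucleus and is known to hold stored messages silent, stood at 47.6, 108 and 268 CPM in 4-cell embryos and at 14.2, 18.6 and 18.4 CPM in blastocysts. Its change was -3.07 ± 0.59 (adjusted p = 0.00247), and library 3 was the highest and library 1 the lowest of the 4-cell libraries. EIF4E3, a cap-binding protein that weakly competes with EIF4E, stood at 1.38, 6.97 and 3.36 CPM and then 0.264, 0.51 and 0.479 CPM, a change of -3.23 ± 0.97 (adjusted p = 0.0188), from low levels. Without library 1 the changes were -3.36 and -3.52. EIF4A1, EIF4B and EIF2A were called without library 1, with changes of 1.67, 1.22 and 0.64. EIF4A3, EIF4G2 and EIF4G3 were not called with or without it.

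Among the EIF1 and EIF5 genes, EIF1AX, EIF1AY and EIF5A rose and EIF1, EIF5A2 and EIF5B fell in both comparisons. EIF5B, the subunit-joining GTPase, stood at 271, 415 and 585 CPM in 4-cell embryos, 55.4, 43.5 and 79.6 CPM in blastocysts and 58.3, 63.2 and 35.6 CPM in hatched embryos, so that the 4-cell mean was 7.12 times that of blastocysts. Its log2 changes were -2.85 ± 0.42 (adjusted p = 0.000665) and -3.04 ± 0.42 (adjusted p = 0.000512), and -2.97 ± 0.35 and -3.17 ± 0.35 without library 1. EIF5A2 stood at 82.8, 39.9 and 22.0 CPM and then 5.78, 3.63 and 7.07 CPM, a change of -3.16 ± 0.63 (adjusted p = 0.00288), while its copy EIF5A rose by 1.34 ± 0.48 (adjusted p = 0.0381). EIF1 stood at 2329.8, 2868 and 3023 CPM and then 1315, 910.5 and 1366 CPM, a change of -1.22 ± 0.28 (adjusted p = 0.00595), and EIF1B was not called, at -0.24 ± 0.30 with and 0.05 without library 1. Without library 1 the changes were -2.40 for EIF5A2, 2.25 for EIF5A and -1.20 for EIF1. EIF6 was called without library 1, at 2.94 ± 0.24, and was at 1.21 ± 0.71 (adjusted p = 0.175) with it. EIF1AD was likewise called only without it, at 0.07 ± 0.82 with and 2.13 ± 0.40 without library 1.

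The second question was whether origin matters at the blastocyst stage. In IVF blastocysts 2 of 46 genes were higher and 5 lower than in in vivo blastocysts, against 10.8% of all 15528 genes called, 6.09% higher and 4.74% lower. The median log2 fold change was -0.19 over the 46 genes and 0.05 over all. The 5 lower genes serve different steps: EIF3J, EIF5B, EIF4A1, EIF2S2 and EIF3D. The 2 higher genes were EIF2D and EIF3E. The trophectoderm markers summed to 32026 to 38169 CPM in IVF and to 22559 and 25622 CPM in in vivo blastocysts. The epiblast markers summed to 1487, 1139 and 981 CPM in IVF and to 935 and 762 CPM in in vivo blastocysts, so both sums were apart by origin. KRT8 (means of 30787 CPM in IVF and 21101 CPM in vivo) and POU5F1 (1155 and 788 CPM) made up most of these sums. The sums therefore tell little of the other markers, and the part of either list in these differences was not tested.

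EIF3J (chromosome 1, 126998613 to 127019264) stood at 64.7, 43.9 and 55.1 CPM in IVF and 236 and 198 CPM in in vivo blastocysts. The groups were far apart, with an in vivo mean of 3.98 times the IVF mean. The log2 fold change was -1.99 ± 0.25 (adjusted p = 0.00326), and the call was kept with each of the 5 libraries left out in turn, which no other gene of the 46 did in this comparison. EIF5B (chromosome 3, 54861759 to 54930826) stood at 55.4, 43.5 and 79.6 CPM in IVF and 316 and 155 CPM in in vivo blastocysts. Both in vivo libraries lay above all IVF libraries, library 1 further than library 2. The change was -1.98 ± 0.36 (adjusted p = 0.00889), and -2.41 to -1.36 with single libraries left out.

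EIF4A1 (chromosome 12, 52868479 to 52874248) stood at 514, 450.2 and 566 CPM in IVF and 1044 and 1156 CPM in in vivo blastocysts, with no overlap. The change was -1.10 ± 0.21 (adjusted p = 0.0106), while its copy EIF4A2 stood at 605, 409 and 406 CPM in IVF and 563 and 485 CPM in in vivo blastocysts, which overlapped, with a change of -0.14 ± 0.24 (adjusted p = 0.756). EIF2S2 (chromosome 17, 37551182 to 37570269) stood at 515, 295 and 396 CPM in IVF and 1620.3 and 946 CPM in in vivo blastocysts, and in vivo library 1 was the highest of all 13 libraries for this gene. Its change was -1.67 ± 0.32 (adjusted p = 0.0106), while EIF2S1 and EIF2S3 stood at -0.21 ± 0.22 and -0.31 ± 0.23 and were not called. EIF5B, EIF4A1 and EIF2S2 were no longer called without in vivo blastocyst library 1, with adjusted p-values of 0.0917, 0.0555 and 0.109.

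EIF3D stood at 207, 195 and 223 CPM in IVF and 321 and 389.6 CPM in in vivo blastocysts, a change of -0.77 ± 0.18 (adjusted p = 0.0229). EIF2D stood at 71.5, 69.4 and 68.6 CPM in IVF and 43.7 and 30.2 CPM in in vivo blastocysts, the reverse order, with a change of 0.92 ± 0.25 (adjusted p = 0.0356). EIF3E stood at 234, 201 and 229 CPM in IVF and 139 and 136 CPM in in vivo blastocysts, also higher in IVF, with a change of 0.69 ± 0.20 (adjusted p = 0.048). These 3 calls lay near the threshold: EIF3D was lost without either in vivo library or without IVF library 1 or 2, and EIF2D and EIF3E were lost without any 1 of the 5 libraries. Just short of the threshold were EIF3L at -0.76 ± 0.23, EIF4G2 at 0.83 ± 0.27 and EIF2B4 at -0.76 ± 0.25, with adjusted p-values of 0.0599, 0.0723 and 0.0752. The eIF5 gene listed as LOC100522498 stood at 276, 196 and 202 CPM in IVF and 427 and 364 CPM in in vivo blastocysts, with a change of -0.81 ± 0.26 (adjusted p = 0.0697).

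Among hatched blastocysts the comparison of origin used other libraries. There 1 of 46 genes was higher in IVF and 4 lower, against 11.8% of all genes called, 6.96% higher and 4.88% lower, with medians of -0.09 over the 46 genes and 0.04 over all. EIF3J stood at 37.7, 47.6 and 38.0 CPM in IVF and 86.4 and 136 CPM in in vivo hatched embryos, again without overlap. Its change was -1.41 ± 0.25 (adjusted p = 0.00555), and the call was lost without in vivo hatched library 2 (adjusted p = 0.0635). It was the 1 gene of the 46 called for origin at both stages. The share of all genes called at both stages is not given, so this count tells nothing of the 46 as a set. EIF5B, EIF4A1 and EIF2S2 stood at -1.01 ± 0.36, -0.69 ± 0.21 and -0.50 ± 0.32 here, with adjusted p-values of 0.0926, 0.0555 and 0.342.

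Both main scaffolds were lower in IVF hatched embryos. EIF4G1, the scaffold that joins the cap to EIF3, stood at 104, 97.8 and 80.3 CPM in IVF and 152 and 192 CPM in in vivo hatched embryos, a change of -0.83 ± 0.20 (adjusted p = 0.0224). EIF4G2 (chromosome 2, 48666590 to 48678656) stood at 513, 476 and 615 CPM in IVF and 820.5 and 1471 CPM in in vivo hatched embryos, a change of -1.07 ± 0.26 (adjusted p = 0.0229). EIF3B, a core subunit, stood at 190.3, 263 and 261 CPM in IVF and 339.7 and 547 CPM in in vivo hatched embryos, a change of -0.87 ± 0.23 (adjusted p = 0.0348). In each of these 3 genes in vivo library 2 was the highest, and without it none of the 5 genes was called. EIF4G1 was also lost without IVF hatched library 2 or 3, EIF4G2 without library 1 or 2, and EIF3B without library 1, 2 or 3. EIF4EBP2 (chromosome 14, 73323609 to 73355443), a repressor of EIF4E, stood at 38.6, 38.9 and 31.8 CPM in IVF and 17.5 and 19.9 CPM in in vivo hatched embryos, a change of 0.99 ± 0.29 (adjusted p = 0.049), and was lost without any 1 of the 5 libraries. The hypoblast markers were also highest in in vivo hatched library 2 (696 CPM, against 231.5 CPM in the unnumbered library and 145 to 212 CPM in IVF hatched embryos). The epiblast markers summed to 798, 1075 and 1059 CPM in IVF and to 580.5 and 346 CPM in in vivo hatched embryos, without overlap. Most of these sums was POU5F1, with means of 953 CPM in IVF and 443 CPM in in vivo hatched embryos. The part of either list in these differences was not tested.

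**Figure D3:**
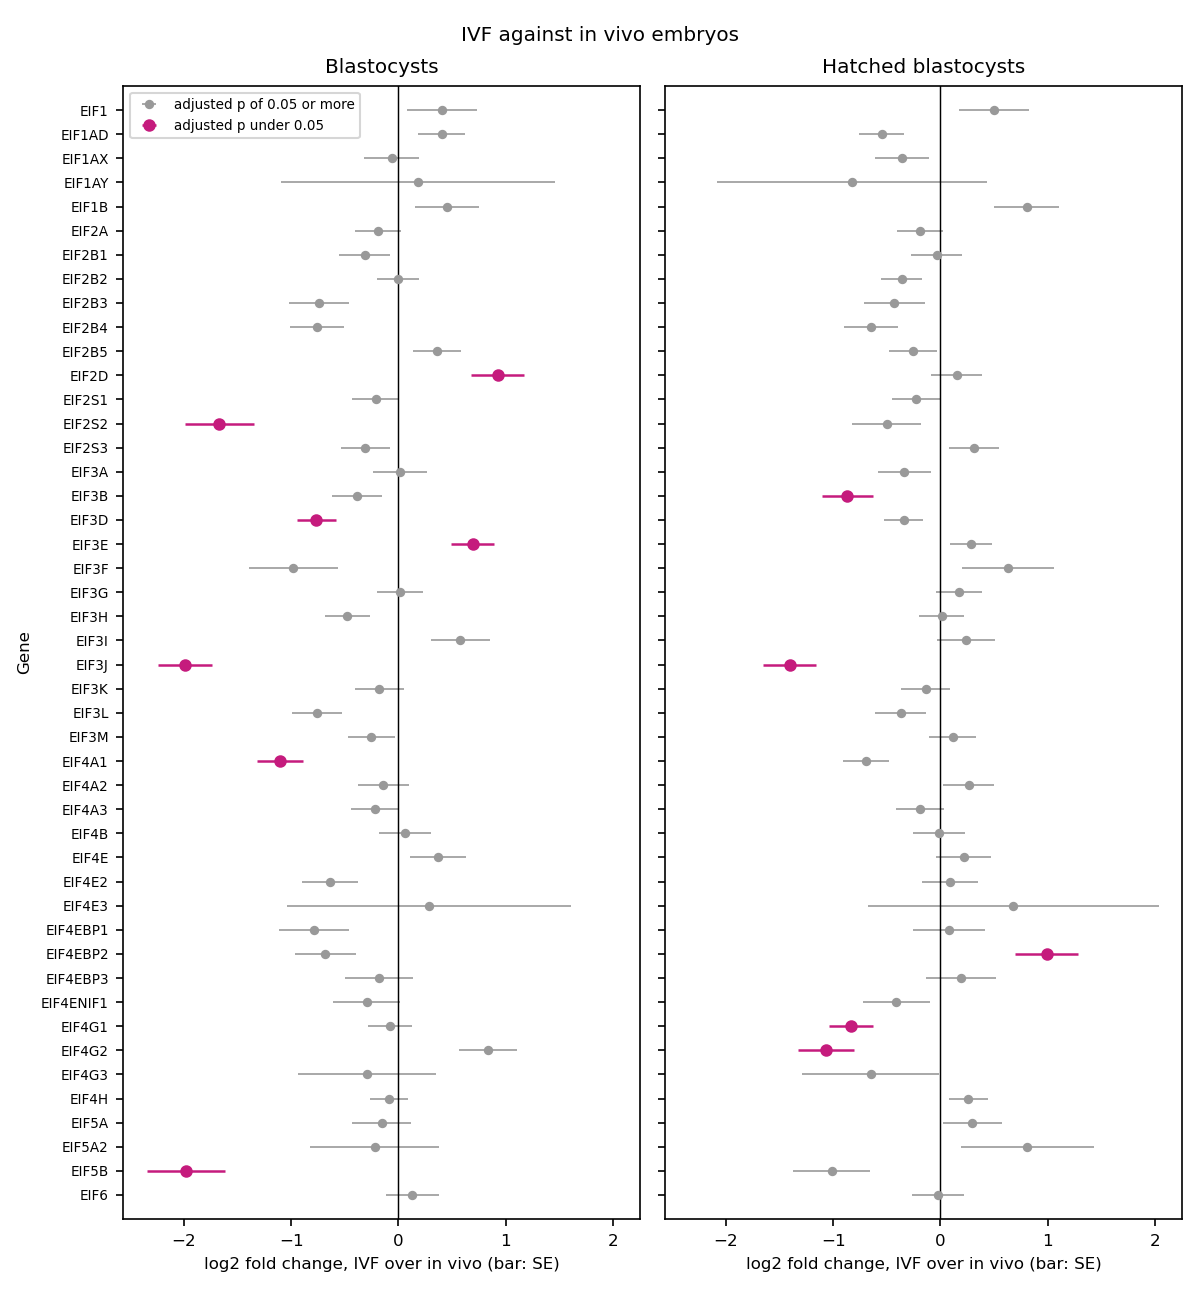
Points are log2 fold changes of IVF over in vivo embryos from edgeR, with bars of 1 standard error, for the 46 genes at the blastocyst stage (left) and the hatched stage (right). Called genes are magenta. EIF3J is called on the left of 0 in both panels, at -1.99 and -1.41, and EIF5B, EIF2S2 and EIF4A1 are called in blastocysts.

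The third question was what hatching changes. In IVF embryos none of the 46 genes was called in edgeR between hatched and unhatched blastocysts, against 0.0451% of all 15528 genes, all of them lower after hatching. At an unadjusted p under 0.05 there was 1, EIF4H, and DESeq2 called 0. EIF4H stood at 569, 631 and 522 CPM before and 731, 874 and 749 CPM after hatching, without overlap, with a change of 0.44 ± 0.16 (adjusted p = 1). EIF3J was next by p, at 64.7, 43.9 and 55.1 CPM before and 37.7, 47.6 and 38.0 CPM after hatching, which overlapped, with a change of -0.42 ± 0.23 (adjusted p = 1).

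In embryos developed in vivo, 4 of 46 genes were higher and 3 lower in hatched than in unhatched blastocysts, against 14.3% of all genes called, 6.96% higher and 7.39% lower. The median log2 fold change was -0.16 over the 46 genes and -0.01 over all. This comparison shares its libraries with both comparisons of origin. EIF4G2, the scaffold used for translation that does not need EIF4E, stood at 243 and 323 CPM before and 820.5 and 1471 CPM after hatching. Its change was 1.98 ± 0.30 (adjusted p = 0.00234), 4.05 times by the means, and the call was kept with each of the 4 libraries left out. EIF2B5 stood at 90.6 and 105 CPM before and 229 and 149 CPM after, a change of 0.92 ± 0.25 (adjusted p = 0.0304). EIF1AD and EIF2D rose as well, by 0.88 ± 0.24 (adjusted p = 0.0308) and 0.86 ± 0.26 (adjusted p = 0.0499).

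The 3 lower genes were EIF4EBP2, EIF2S2 and EIF3J. EIF4EBP2 stood at 41.2 and 54.1 CPM before and 17.5 and 19.9 CPM after hatching, a change of -1.38 ± 0.32 (adjusted p = 0.0156). EIF2S2 stood at 1620.3 and 946 CPM before and 456 and 513 CPM after, a change of -1.44 ± 0.36 (adjusted p = 0.0231). EIF3J stood at 236 and 198 CPM before and 86.4 and 136 CPM after, a change of -1.0 ± 0.28 (adjusted p = 0.0352). The groups did not overlap for any of the 3, but these were picked as called genes with 2 libraries a group, so this adds nothing to the calls. Each of the 7 calls but that of EIF4G2 was lost without at least 2 of the 4 libraries: the unnumbered hatched library for all 6, blastocyst library 1 for EIF2S2, EIF2B5, EIF1AD and EIF3J, blastocyst library 2 for EIF4EBP2, EIF2B5, EIF1AD and EIF2D, and hatched library 2 for EIF4EBP2, EIF2S2 and EIF1AD. The epiblast markers, mostly POU5F1 (means of 788 and 443 CPM), summed to 935 and 762 CPM before and 580.5 and 346 CPM after hatching. The hypoblast markers summed to 125 and 188 CPM before and 231.5 and 696 CPM after. The part of either list was not tested.

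The change at hatching was then compared between origins in 1 fit of all 10 blastocyst libraries. It differed for 2 of 46 genes, against 4.71% of all genes, 2.79% higher and 1.93% lower. For EIF4G2 the log2 change was 0.09 ± 0.24 in IVF and 1.98 ± 0.30 in in vivo embryos, a difference of -1.90 ± 0.38 (adjusted p = 0.0196). For EIF4EBP2 it was 0.29 ± 0.25 in IVF and -1.38 ± 0.32 in in vivo embryos, a difference of 1.67 ± 0.40 (adjusted p = 0.0401). For EIF4G2 the 6 IVF libraries lay between both in vivo groups, and for EIF4EBP2 all but IVF blastocyst library 3 did. EIF4G2 was no longer called without in vivo blastocyst library 1 or in vivo hatched library 2, and EIF4EBP2 was lost without any 1 of the 10 libraries and without TMM factors.

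**Figure D4:**
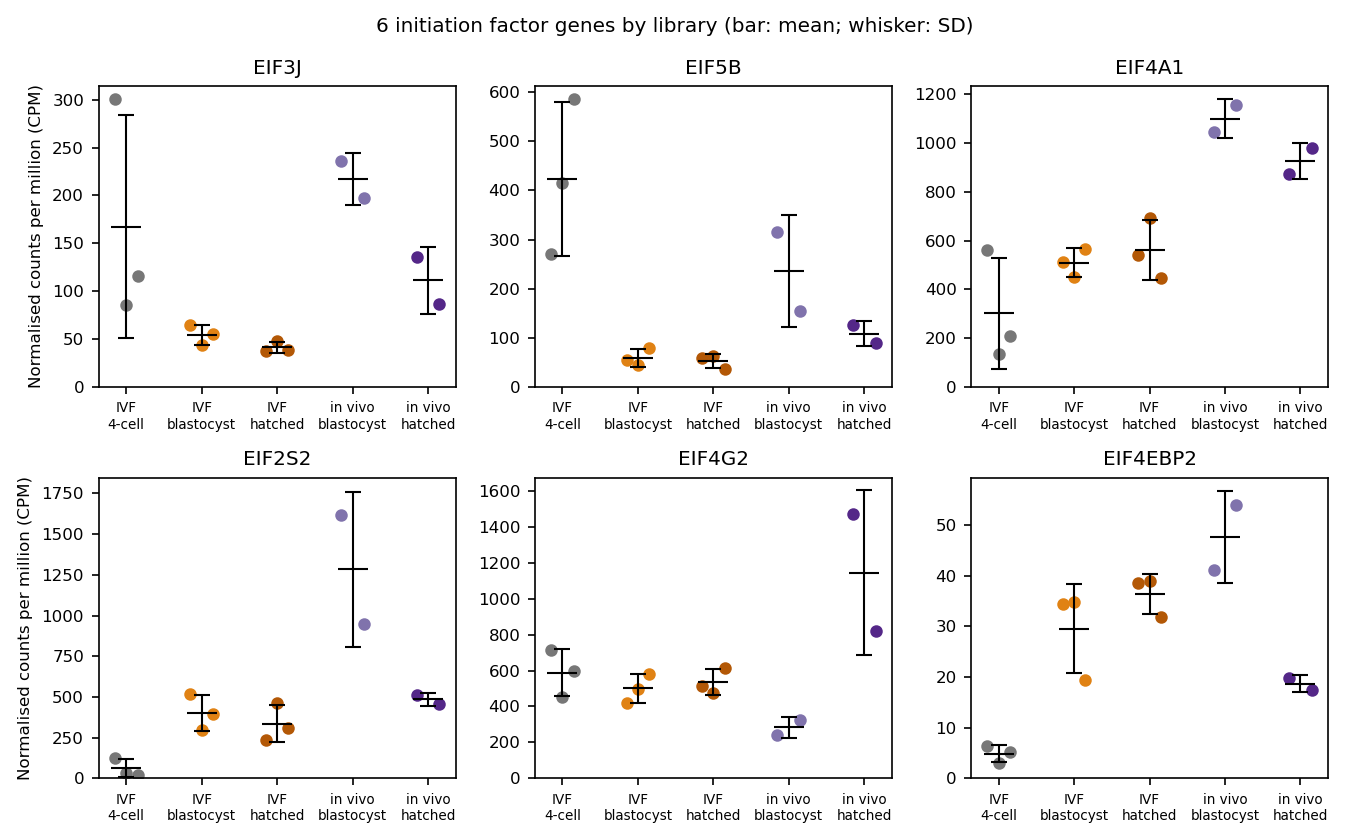
Points are CPM of single libraries, bars are group means and whiskers the SD, for 6 genes in the 5 groups, on linear axes from 0. IVF libraries lie below in vivo libraries at both stages for EIF3J, EIF5B and EIF4A1, while for EIF4G2 the 6 IVF libraries (418 to 615 CPM) lie between in vivo blastocysts (243 and 323) and in vivo hatched embryos (820.5 and 1471).

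Of the EIF1A genes, EIF1AX (chromosome X, 16429625 to 16449581) and EIF1AY (chromosome Y, 9687350 to 9704489) are near-identical copies, so reads may have been split between them and the value of either is uncertain. EIF1AY had 0, 0 and 7 counts in 4-cell embryos, and 935 to 2258 counts in the 4 in vivo and 3 IVF blastocyst libraries. In IVF hatched embryos it had 1921, 0 and 306 counts in libraries 1, 2 and 3, while EIF1AX stood at 316, 475 and 369.6 CPM there. The gap in library 2 was therefore seen in the Y-linked copy and not in the X-linked one. A count of 0 allows up to 3 counts, or 0.0646 to 0.0903 CPM depending on the library.

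EIF1AY rose by 9.61 ± 2.47 from 4-cell embryos to blastocysts (adjusted p = 0.00954) and by 8.32 ± 2.36 to hatched blastocysts (adjusted p = 0.0149), where its libraries overlap the 4-cell ones. The low side rests on 7 counts, so these fitted folds depend on the prior count and are no bound. Without 4-cell library 1 the fitted values were 9.12 (adjusted p = 0.0197) and 7.82 (adjusted p = 0.0304). EIF1AX rose by 1.44 ± 0.53 and 1.56 ± 0.53, and by 2.36 and 2.47 without 4-cell library 1. EIF1AY made up 22.9% to 39.3% of the FPKM of both copies in blastocysts of either origin, 13.6% in in vivo hatched library 2, and 38.4%, 0% and 7.61% in IVF hatched libraries 1, 2 and 3. The same order was present in the Y-linked gene described as eIF2 subunit 3, LOC100624149, at 80.7, 0 and 17.8 CPM in IVF hatched libraries 1, 2 and 3 and 68.6, 57.3 and 60.5 CPM in IVF blastocysts. Over 7 Y-linked genes, chosen after values were seen, library 2 held 1 count in all and 6 of the 7 were at 0, library 3 held 1844 counts, and the other blastocyst libraries held 6770 to 15258. The sex of the embryos in a pool is not given in the labels, and its part in these values was not tested.

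**Figure D5:**
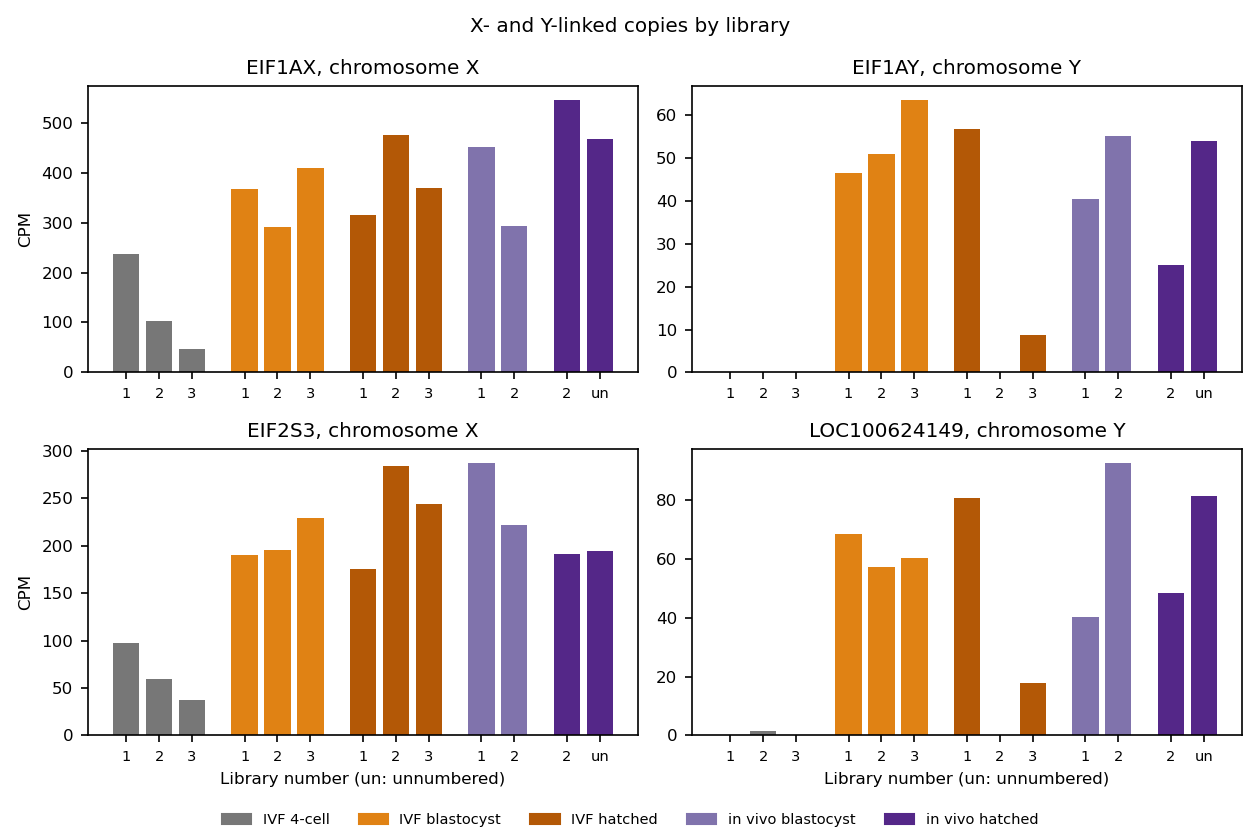
Bars are CPM of single libraries for the X-linked and Y-linked copies of EIF1A (top) and of eIF2 subunit 3 (bottom), coloured by group. The Y-linked copies are at 0 in IVF hatched library 2 and low in library 3, while the X-linked copies there lie among the other blastocyst libraries.

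Other genes of translation were taken from a list of 53, of which 50 were tested among blastocysts and 52 among IVF embryos. Against 4-cell embryos 18 rose and 9 fell in IVF blastocysts, and 16 rose and 10 fell in hatched ones. These are 51.9% and 50% of the genes tested, against 56.3% and 56.6% of all genes. Without 4-cell library 1, 30 rose and 12 fell in blastocysts (80.8%) and 28 rose and 12 fell in hatched ones (76.9%), against 66% and 66.4% of all genes. The 6 called elongation and termination genes all rose in both, led by EEF1G at 8.66 ± 0.75, EEF1D at 4.23 ± 0.38 and EEF1A1 at 3.35 ± 0.36 in blastocysts. EIF4E1B, the oocyte cap-binding protein left out of the family here, stood at 89.2, 326 and 322 CPM in 4-cell embryos and at 0 in all IVF blastocysts. The 4-cell mean, 246 ± 136 CPM, was 3017 times a floor of 3 counts in each library. This fold does not allow for the spread between the 4-cell libraries. The poly(A)-binding proteins moved apart: PABPC1 rose by 4.96 ± 0.76, and the oocyte copy PABPC1L changed by -8.75 ± 1.48. Of the kinases that phosphorylate EIF2S1, EIF2AK1 rose by 3.21 ± 0.63, EIF2AK2 changed by -2.44 ± 0.56 and EIF2AK4 by -1.27 ± 0.34, and EIF2AK3 was not called. Without 4-cell library 1 the changes were 8.51 for EEF1G, 4.22 for EEF1D, 3.26 for EEF1A1, 6.37 for PABPC1, -8.79 for PABPC1L, 4.41 for EIF2AK1, -2.66 for EIF2AK2 and -1.39 for EIF2AK4.

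By origin, 2 of the 50 were higher and 4 lower in IVF blastocysts, and 1 higher and 5 lower in IVF hatched embryos. This is 12% of the genes tested in each, near the 10.8% and 11.8% of all genes. PABPC4, a poly(A)-binding protein, stood at 26.4, 37.7 and 28.1 CPM in IVF and 217 and 199 CPM in in vivo blastocysts, a change of -2.75 ± 0.24 (adjusted p = 0.000439). LARP1, a repressor of messages for ribosomal proteins, changed by -1.88 ± 0.30, MTIF3, the mitochondrial initiation factor, by -1.63 ± 0.23, and NCBP1, the nuclear cap-binding protein, by 2.22 ± 0.34. In hatched embryos GSPT1, a termination factor, changed by -1.64 ± 0.22 (adjusted p = 0.00134), DHX29, a helicase of scanning, by -2.01 ± 0.36, and PPP1R15A, which directs a phosphatase to EIF2S1, by -1.32 ± 0.34. With hatching 3 of the 50 rose and 4 fell in vivo (14%, against 14.3% of all genes), and the change differed for 3, 2 higher and 1 lower (6%, against 4.71%). PABPC4 and NCBP1 led that difference, at 1.91 ± 0.35 (adjusted p = 0.0141) and -2.18 ± 0.44 (adjusted p = 0.0209).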

How the data were processed

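A single gene table (build Sscrofa11.1) was deposited for the 13 libraries. Its counts, as deposited by the authors, are whole numbers without normalisation. Its FPKM values, named so per the file headers, are scaled by the authors for gene length and library size. The RNA was selected with oligo(dT) and sequenced from both ends, per the labels' protocols. Tools in the submitters' processing notes are HISAT2, RSEM, fastp 0.18.0, StringTie 1.3.1 and Bowtie2. Their role, the counting, the use of strand and the splitting of reads between near-identical genes are not given in the sources used here. One in vivo hatched library has a count column without a replicate number, so its FPKM column could not be tied to it and was left out. Of 39 columns of values, 14 were not used (that column and TPM).

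Tests on the counts used edgeR 4.0.16 (R 4.3.3, glmQLFit and glmQLFTest) with TMM factors, filterByExpr to leave out low genes, and p-values adjusted over all genes tested (Benjamini-Hochberg), and an adjusted p under 0.05 was a call. The 10 blastocyst libraries were fitted together (15528 genes) and the 9 IVF libraries together (16312 genes). On simulated counts for IVF against in vivo blastocysts, 44.8% of genes changed 4-fold and 65.6% of those changed 16-fold were recovered (14770 genes). For IVF blastocysts against 4-cell embryos these shares were 0% and 39.6% (15740 genes). Each simulation changed only 100 genes at each fold, whereas 56.3% of all genes were called in the real blastocysts against 4-cell embryos. Adjustment over all genes is stricter where few genes change, so these shares are not detection rates for the comparisons above. Alternatives were RLE factors, plain library sizes (chosen after seeing the data), no filter, DESeq2 1.42.0, other sets of libraries, a replicate block and leaving out each library. All libraries were kept, since chi-square over degrees of freedom was at least 72.5 between any pair of a group. A count of 0 allows 3 counts, and this floor covers counting error only.

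Genes given with values were, on each side of a comparison, up to 4 called members with the smallest p and up to 2 more with the largest fold, the 2 smallest p where none was called, and families of related copies. The members, this rule and the lists were chosen with earlier results of these data known. HAS2 and PAX8 of the marker lists were not found in the table, and NANOG has 2 rows. Figures were drawn with matplotlib 3.10.9.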

Additional observations from a re-analysis of the deposited data

Results flagged for a closer look

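The change at hatching differed between IVF and in vivo embryos in 2 genes by the test of the difference itself. For EIF4G2 the change in IVF minus that in vivo was -1.90 (log2, edgeR, adjusted p = 0.0196, 10 libraries), and it was -2.26 to -1.43 with single libraries left out. For EIF4EBP2 it was 1.67 (adjusted p = 0.0401), and 1.42 to 1.82 with single libraries left out. Groups of 2 or 3 libraries are too small to look for single outlying libraries.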

How the results depend on the processing

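No called gene changed direction under any alternative. With all 13 libraries fitted together, 0 of the 46 genes were called in blastocysts by origin, 0 in hatched embryos by origin, 1 in in vivo hatching and 0 in the difference of hatching changes. Without the filter the counts were 11, 12, 1 and 4 for blastocysts by origin, in vivo hatching, IVF hatching and the difference. DESeq2 called 8 in hatched embryos by origin and 14 in in vivo hatching, the fit of only the 2 groups called 1 in in vivo hatching, and plain library sizes called 1 in the difference. Except without 4-cell library 1, the share of all genes called under the alternatives, including leave-one-out fits and the replicate block, is not given. These counts therefore do not tell whether the 46 genes moved apart from all genes. The cause was not tested. With single libraries left out, the counts ranged from 1 to 6 (blastocysts by origin), 0 to 6 (hatched by origin), 3 to 5 (in vivo hatching), 0 to 0 (IVF hatching), 0 to 1 (difference), 23 to 39 (blastocysts against 4-cell) and 24 to 39 (hatched against 4-cell). By origin the count fell to 1 without in vivo blastocyst library 1 and to 4 without IVF blastocyst library 1 or 2, and in hatched embryos to 0 without in vivo library 2 and to 2 without any IVF library. For in vivo hatching it was 3 without blastocyst library 1 and 4 without either hatched library, and for the difference it was 0 without in vivo blastocyst library 1 or hatched library 2 and 1 without any other. Where a group was left with 1 library, that library was assumed to vary like the others. Of the 10 highest genes by CPM, 8 were among the 10 highest by FPKM.

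The correlation of deviations from the group mean was -0.25 to 0.04 over 15 same-numbered pairs, none over 0.1. Over 30 pairs with other numbers it was -0.13 to 0.25, with 4 over 0.1. Deviations within a group sum to 0, so these values partly fix one another and cannot decide whether replicate numbers pair libraries. With the replicate block 8 genes were called in blastocysts by origin (all lower), 0 in IVF hatching, 25 in blastocysts against 4-cell embryos and 27 in hatched embryos against 4-cell embryos. A block could not be fitted where the unnumbered library enters.

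With 2 or 3 libraries in a group, calls near the threshold rest on single libraries, and low genes such as EIF4E3, EIF4G3 and EIF4EBP3 are measured with few counts.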

Other observations

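The gene listed as eIF3 subunit C, LOC110260088, stood at 287, 44.5 and 41.3 CPM in 4-cell embryos, 136, 184 and 265 in IVF blastocysts, 227, 193 and 199 in IVF hatched, 225 and 319.6 in in vivo blastocysts and 278 and 417 in in vivo hatched embryos. It was not called against 4-cell embryos with all libraries (0.62 ± 0.70, adjusted p = 0.474, edgeR), and it was called without 4-cell library 1 (2.28 ± 0.31, adjusted p = 0.000438). The eIF5 gene, LOC100522498, stood at 474, 271 and 313 CPM in 4-cell embryos and 195, 331 and 226 CPM in IVF hatched embryos, and was not called in any of the 7 comparisons.

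Some of the genes lie close together on Sscrofa11.1. EIF2B5 (122060408 to 122070327) and EIF4G1 (122203488 to 122225371) both lie on chromosome 13, and EIF4A1 (52868479 to 52874248) and EIF5A (52659040 to 52664686) on chromosome 12. At in vivo hatching EIF2B5 and EIF4G1 stood at 0.92 ± 0.25 and 0.73 ± 0.23, with adjusted p-values of 0.0304 and 0.0521. By origin in blastocysts EIF4A1 and EIF5A stood at -1.10 ± 0.21 and -0.16 ± 0.27, with adjusted p-values of 0.0106 and 0.764.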
